A study of Homo sapiens with 16 samples.

Results

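The genes of the mitochondrial ribosomal proteins were taken as all rows of the deposited table whose gene name is MRPL or MRPS followed by a number, with or without a closing A, B or C. This gave 78 of 14857 genes, and the 78 are all the genes that carry such a name in GENCODE 29, an annotation of the human genome build GRCh38. The cells were MDA-MB-231, a human triple-negative breast cancer line, carrying a tet-off system in which doxycycline keeps the introduced gene silent. Clones H3 and E11 re-expressed tristetraprolin (groups TTP_H3 and TTP_E11), an RNA-binding protein encoded by ZFP36 that speeds the decay of mRNAs with AU-rich elements, and clones B and A held an empty vector (groups EV_B and EV_A). There were 4 biological replicates of every clone and so 16 libraries. All cells were grown with G418 sulfate and Hygromycin B, doxycycline at 2 µg/mL is stated for the TTP cells only, and these agents were removed for 24 h or longer before an experiment. Each group is 1 clone, so an arm rests on 2 clones, and a difference between arms cannot be told apart from a difference between the clones that make them up or from the earlier doxycycline.

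Mitochondrial ribosomes translate the few proteins encoded in mitochondrial DNA, which are subunits of the respiratory chain and of the ATP synthase. Their proteins are encoded in the nucleus, made in the cytosol and imported, and they assemble with 2 ribosomal RNAs of mitochondrial origin into a small and a large subunit. Some have a counterpart in bacterial ribosomes and others were gained by mitochondria. Of the 78 genes, 16 encode small subunit proteins with a bacterial counterpart and 10 small subunit proteins specific to mitochondria. For the large subunit 30 have a bacterial counterpart and 21 are specific to mitochondria, and these 21 include MRPS18A and MRPS30, which carry small subunit names and sit in the large subunit. MRPS36 was named as a ribosomal protein and was later placed in the oxoglutarate dehydrogenase complex of the citric acid cycle, so it is described by itself.

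The sequences that bear on tristetraprolin are the AU-rich cores in 3′ UTRs, since it binds the heptamer TATTTAT (written as DNA). Of the 78 genes, 10 held this core in the 3′ UTR of their principal GENCODE 29 transcript, or 12.8%, against 32.4% of 12600 protein-coding genes of the table. Among transcripts of equal principal rank GENCODE's basic tag decided, then the longest coding sequence, then the longest transcript. Whether these cells express the chosen transcript was not tested. The sites of the 6 genes among them that passed the test between TTP and EV are shown with the core in capitals, and the position is that of the core's first base counted from the start of the 3′ UTR. MRPL19 and MRPL42 each have a further site that is not shown.
MRPL33, position 201 of 259: tgcatcacattTATTTATctttctgggta
MRPS10, position 651 of 1488: actagttgtatTATTTATcctatgattca
MRPL19, position 1454 of 2575: gtgtgggtctaTATTTATccattgtattg
MRPL42, position 5843 of 14992: tcttatatgtaTATTTATgcatatacata
MRPL17, position 195 of 1336: atatataaattTATTTATtttttccttcc
MRPL22, position 136 of 2514: ttgtaaatgaaTATTTATaaggctttgcc

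Promoters were read from RefSeq (GRCh38.p14) as 250 bases before to 50 bases after the start of each gene, and 69 of the 78 genes were matched. The core motif of the transcription factor YY1 (AAGATGGC, either strand) stood in 20 of the 69 promoters, or 29%, against 5.34% of 10386 promoters of genes in the table and 10.6% of 66 promoters of cytosolic ribosomal protein genes. It is the sequence feature that set the family furthest from the other genes among the motifs searched, and it is shown in capitals for the 5 genes with a concordant change, a term defined with the first results. Each stretch of 30 bases is given on the strand of its gene.
MRPS18A, chr6:43687764-43687793, minus strand: gtaggtttttgAAGATGGCggccctcaagg
MRPS27, chr5:72320206-72320235, minus strand: tggtacgctccAAGATGGCtgcctccatag
MRPL32, chr7:42932143-42932172, plus strand: acccgcgctccGCCATCTTtacccgaagag
MRPS10, chr6:42217834-42217863, minus strand: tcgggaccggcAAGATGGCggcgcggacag
MRPL42, chr12:93467511-93467540, plus strand: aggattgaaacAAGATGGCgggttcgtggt
In MRPS18A, MRPS27, MRPS10 and MRPL42 the motif begins at base 9 to 17 counted from the RefSeq start, and in MRPL32 it begins 222 bases before that start and reads on the other strand. The RefSeq start can differ from the start in GENCODE 29, as it does for MRPS27 and MRPL32. MRPS18A, MRPS27 and MRPL32 were higher in TTP, and MRPS10 and MRPL42 were lower.

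The labels were checked first. ZFP36 stood at 14365 ± 811 in TTP_H3 and 10482 ± 337 in TTP_E11, against 222 ± 8.8 in EV_B and 259 ± 26.3 in EV_A (normalized counts, mean ± SD, n = 4 libraries), which follows the library names used for grouping and not the titles, since 7 of the 8 TTP libraries have a title that says EV. The libraries held 14380767 to 22066098 reads on the listed genes, of which 61847 to 95339 fell on the 78 genes. The mesenchymal markers VIM, CD44 and AXL stood at 10051 normalized counts or more in every clone mean, EPCAM at 237 to 299.8 and the immune marker CD68 at 21.4 to 25.8. ERBB2, whose low level is part of the definition of the line, was present at 2173 to 2862. ESR1, PGR, PTPRC, PECAM1, CDH5 and CDH1, the other markers of the check, are not among the listed genes, so no level can be given for them.

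With both EV clones as control more of these genes rose than fell in the TTP clones, and the changes were small. This balance was not seen against EV_B alone, where 22 of the 78 genes were higher and 23 lower. With limma on log2(normalized counts + 1), and p-values adjusted over all 14857 genes, 38 of the 78 genes rose and 19 fell at an adjusted p under 0.05. Among all 14857 genes 70% passed this test, with 35.4% higher and 34.6% lower, so the 48.7% of the family that rose and the 24.4% that fell are to be read against these shares. The median log2 change of the 78 genes was 0.07, against 0.00 over all genes (0.00066), and the range ran from -0.58 for MRPS36 to 0.55 for MRPS2. An absolute log2 change above 0.5 was reached by 2 of the 78 genes. In these bulk libraries a change in the share of cells that hold an mRNA and a change in its amount per cell cannot be told apart.

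**Figure D1:**
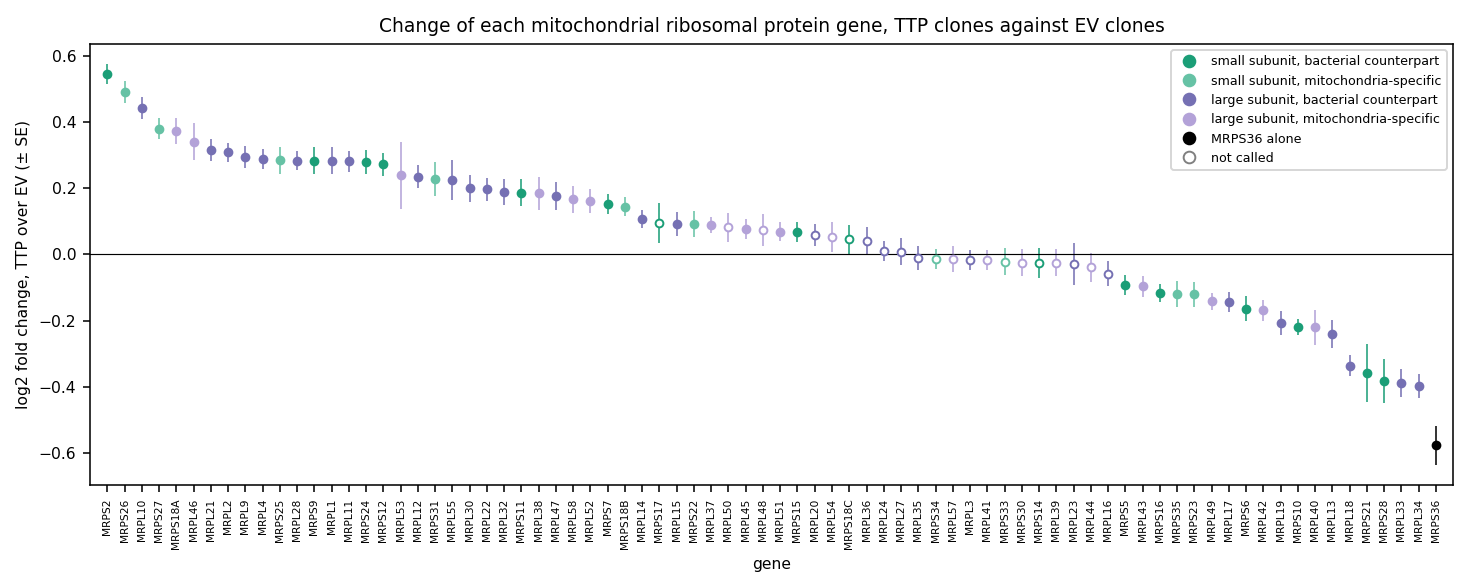
Log2 fold change of each of the 78 genes, TTP clones over EV clones, with its standard error, sorted from highest to lowest and coloured by role; open points did not pass an adjusted p of 0.05. The points run from MRPS2 at 0.55 to MRPS36 at -0.58.

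The count depends on what is taken as the replicate and on the scaling. When the reads of each clone were summed and 2 clones were set against 2 (edgeR), 8 of the 78 genes rose and 4 fell, while 28.8% of all genes passed, 14.5% higher and 14.3% lower. With libraries scaled by their total reads the split was 48 higher and 13 lower, against 38 and 19, and 70.7% of all genes passed, 43.4% higher and 27.3% lower. Over all genes the share of calls that were higher was then 61.4%, against 50.6%. The authors' deposited table gave 30 higher and 19 lower, with the same sign as limma for all 78 genes, and 63.7% of all genes passed there, 32% higher and 31.7% lower. The balance also turned with the EV clone used. With EV_A alone as control the median log2 change was 0.14, with 41 genes higher and 13 lower, where 67.3% of all genes passed, 33.8% higher and 33.4% lower. With EV_B alone it was -0.0012, with 22 higher and 23 lower, where 63.6% passed, 32.3% higher and 31.4% lower.

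Setting each TTP clone against each EV clone gives 4 pairs, and a gene was called concordant where every pair passed in the same direction. This held for 11 of the 78 genes higher in TTP and 7 lower, or 14.1% and 8.97%, against 38.5% of all genes concordant, 19% higher and 19.5% lower. In 10 genes all 8 TTP libraries lay above all 8 EV libraries and in 5 genes all lay below, against 15.6% and 16.2% of all genes. By these measures the family held a smaller share of genes with a change shared by all clones than the table as a whole, in both directions. For the concordant genes that rose this turned with libraries scaled by total reads, where 24 of the 78 genes, or 30.8%, were concordant higher against 25.5% of all genes, and 5, or 6.41%, were concordant lower against 14.3%. The difference of these shares was not tested.

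**Figure D2:**
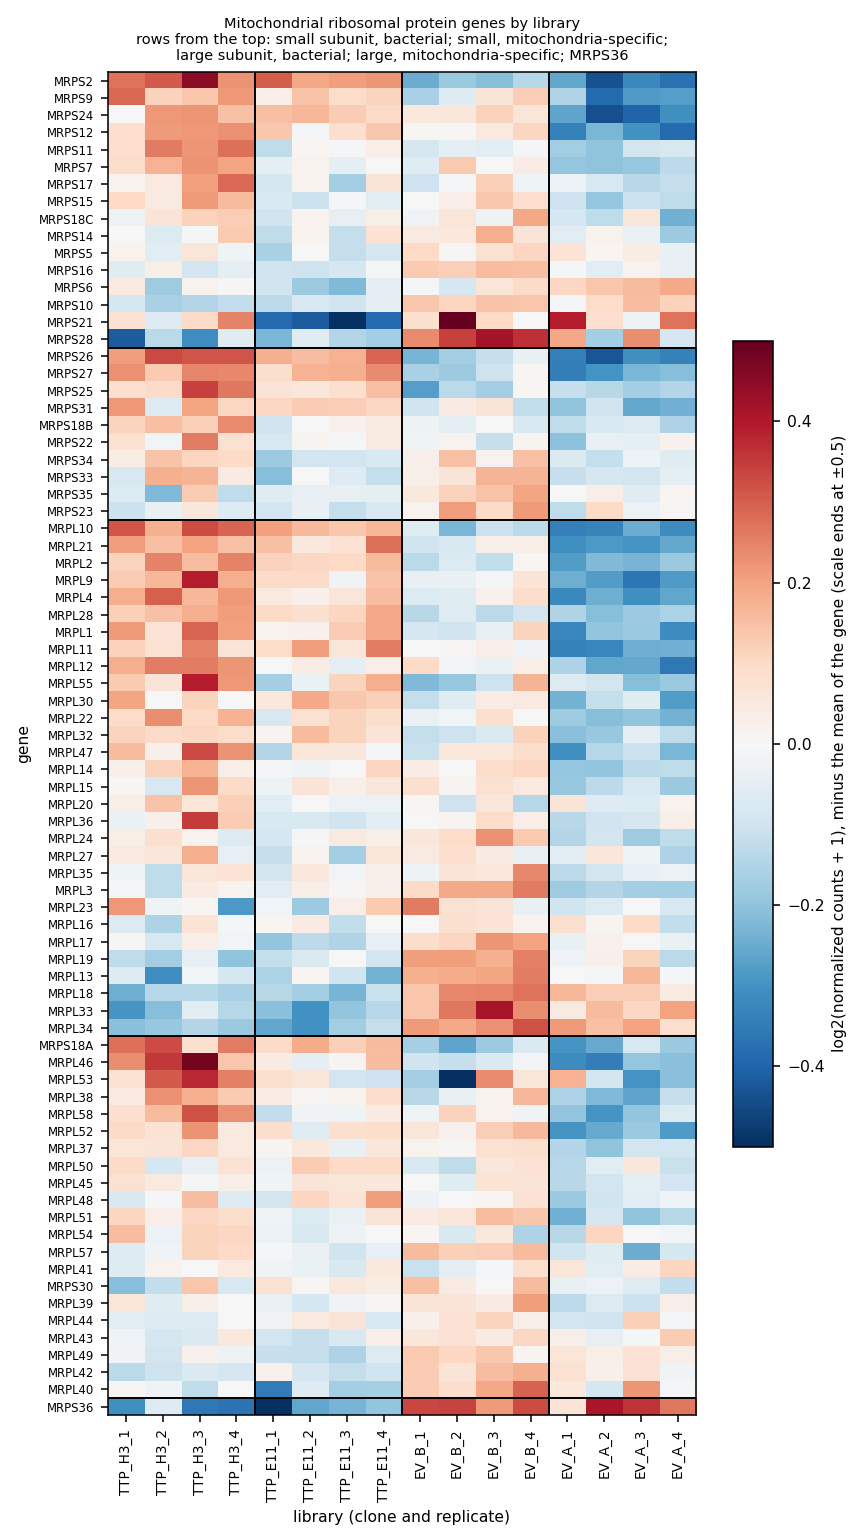
Log2(normalized counts + 1) of the 78 genes in the 16 libraries, minus the mean of each gene, with rows grouped by role and columns by clone. EV_A, at the right, is the lowest clone in 49 of the 78 genes, and the lower rows of the block of large subunit proteins with a bacterial counterpart show MRPL18, MRPL33 and MRPL34 low in both TTP clones.

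Among small subunit proteins with a bacterial counterpart 7 of 16 rose and 6 fell, against 35.4% and 34.6% of all genes, with a median of 0.06. MRPS2 (ENSG00000122140, chromosome 9, 135499984 to 135504673), the counterpart of bacterial S2, was the gene with the largest rise. Its libraries held 2762, 2831, 3122 and 2676 in TTP_H3 and 2819, 2618, 2647 and 2668 in TTP_E11, against 1928, 2011, 1976 and 2072 in EV_B and 1909, 1690.4, 1828 and 1765 in EV_A normalized counts. Every TTP library lay above every EV library, and EV_B was above EV_A. The log2 change was 0.55 (SE 0.031, adjusted p = 1.23e-16) in limma, and the same gene rose with reads summed per clone (adjusted p = 0.0084 in edgeR).

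MRPS10 (ENSG00000048544, chromosome 6, 42206801 to 42217865), the counterpart of bacterial S10, carries both an AU-rich core and the YY1 motif shown above. It had between 3592 and 3887 normalized counts (median 3723) in the 8 TTP libraries and between 4009 and 4472 normalized counts (median 4389.96) in the 8 EV libraries. The arms did not overlap, with TTP lower, and the log2 change was -0.22 (SE 0.024, adjusted p = 9.26e-10) in limma, which with reads summed per clone had an adjusted p of 0.066 in edgeR. MRPS21, the counterpart of bacterial S21, also fell between arms (-0.36 (SE 0.088, adjusted p = 0.000541) in limma), but only TTP_E11 lay below every EV library, as described with the comparison of the TTP clones, and with reads summed per clone the adjusted p was 0.274 in edgeR.

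Of the 10 small subunit proteins specific to mitochondria 6 rose and 2 fell, against 35.4% and 34.6% of all genes, with a median of 0.12. Of these genes 3 were concordant, all higher, or 30%, against 19% of all genes. MRPS26 (ENSG00000125901, chromosome 20, 3045945 to 3048254) had 1306, 1423, 1407 and 1407 in TTP_H3 and 1278, 1258, 1276 and 1382 in TTP_E11, against 961, 1002, 1045 and 1102 in EV_B and 891, 841, 914 and 894 in EV_A normalized counts. All TTP libraries lay above all EV libraries, the lowest being 1258 in TTP_E11 against a highest of 1102 in EV_B. Its log2 change was 0.49 (SE 0.033, adjusted p = 1.35e-14) in limma.

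MRPS27 (ENSG00000113048, chromosome 5, 72219409 to 72320646), a protein with pentatricopeptide repeats, had 2379, 2226, 2408 and 2398 in TTP_H3 and 2160.3, 2290.4, 2300.2 and 2395 in TTP_E11, against 1817, 1793, 1889 and 2042 in EV_B and 1599, 1650.5, 1732 and 1754 in EV_A normalized counts. The arms were again apart, with EV_B nearer to the TTP clones than EV_A. The log2 change was 0.38 (SE 0.031, adjusted p = 8.81e-13) in limma. MRPS25 (ENSG00000131368, chromosome 3, 15042460 to 15065335) had between 842 and 1025 normalized counts (median 862) in the 8 TTP libraries and between 668 and 815 normalized counts (median 734) in the 8 EV libraries, without overlap, and a log2 change of 0.28 (SE 0.041, adjusted p = 2.33e-07). MRPS27 and MRPS25 overlap genes on the opposite strand (PTCD2 and NR2C2), and the sources used here do not say whether reads were counted by strand, so reads of such neighbours cannot be told apart. The same limit holds for MRPS2, MRPS18A and MRPL2, which overlap C9orf116, RSPH9 and KLC4, and for other genes of the family. MRPS24 overlaps URGCP-MRPS24 on its own strand.

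The large subunit proteins with a bacterial counterpart, the largest of the roles, made up most of the concordant genes, with 6 higher and 4 lower among 30. These are 20% and 13.3%, against 19% and 19.5% of all genes. In the test between arms 16 rose and 6 fell (median 0.10), against 35.4% and 34.6% of all genes. MRPL10 (ENSG00000159111, chromosome 17, 47823272 to 47831534) forms the base of the stalk to which translation factors bind. Its libraries held 1249.5, 1138, 1261 and 1229 in TTP_H3 and 1159, 1124, 1105 and 1129.99 in TTP_E11, against 964, 858, 933 and 915 in EV_B and 792, 798, 848 and 808 in EV_A normalized counts. No TTP library fell to the level of an EV library, and the log2 change was 0.44 (SE 0.033, adjusted p = 1.04e-13) in limma. MRPL12, which attaches to MRPL10 in the stalk, had between 841 and 1041 normalized counts (median 941) in the 8 TTP libraries and between 679.9 and 934 normalized counts (median 817) in the 8 EV libraries, with overlap between arms. Its log2 change was 0.23 (SE 0.034, adjusted p = 3.11e-07) in limma, it was also 0.22 higher in TTP_H3 than in TTP_E11 (adjusted p = 0.002), and with reads summed per clone it did not pass in edgeR (adjusted p = 0.197). The 2 stalk genes therefore both rose in the test between arms, but only MRPL10 was concordant.

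MRPL2, whose bacterial counterpart L2 lies by the peptidyl transferase centre, had between 2457 and 2728 normalized counts (median 2519.5) in the 8 TTP libraries and between 1894 and 2312 normalized counts (median 2054) in the 8 EV libraries. MRPL28 had between 1332 and 1459.7 normalized counts (median 1384) in the 8 TTP libraries and between 1088 and 1209 normalized counts (median 1140.3) in the 8 EV libraries. Neither gene's arms overlapped, and the log2 changes in limma were 0.31 (SE 0.028, adjusted p = 1.14e-11) for MRPL2 and 0.28 (SE 0.029, adjusted p = 1.73e-10) for MRPL28. The other concordant genes that rose were MRPL21, MRPL11 and MRPL32, named after their values were seen to complete the 11, with log2 changes of 0.32, 0.28 and 0.19.

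The 4 concordant genes of the same group that fell were MRPL34, MRPL33, MRPL18 and MRPL13. MRPL34 (ENSG00000130312, chromosome 19, 17292609 to 17306843), the counterpart of bacterial L34, had 642, 652, 670.3 and 653 in TTP_H3 and 619, 601, 659 and 683 in TTP_E11, against 862, 848, 869.5 and 925 in EV_B and 859.95, 822, 855 and 786 in EV_A normalized counts. The highest TTP library, at 683, lay below the lowest EV library at 786, and the log2 change was -0.40 (SE 0.036, adjusted p = 1.36e-11) in limma. MRPL33 (ENSG00000243147, chromosome 2, 27771717 to 27988087), whose short 3′ UTR holds the AU-rich core at position 201, had 584, 617, 688 and 649 in TTP_H3 and 619, 581, 626 and 649 in TTP_E11, against 789, 859.8, 954 and 843 in EV_B and 739, 800.2, 769.8 and 825 in EV_A normalized counts. Both TTP clones were below both EV clones in every library, with a log2 change of -0.39 (SE 0.042, adjusted p = 6.35e-10) in limma.

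MRPL18 (ENSG00000112110, chromosome 6, 159789812 to 159798436), related to the bacterial protein that binds 5S rRNA, had 1021, 1094, 1094 and 1079.6 in TTP_H3 and 1099.6, 1075, 1029 and 1119.8 in TTP_E11, against 1330.4, 1427, 1431 and 1459 in EV_B and 1357, 1316, 1315 and 1247 in EV_A normalized counts. The TTP clones differed little from each other and lay below both EV clones, and the log2 change was -0.34 (SE 0.031, adjusted p = 1.91e-11) in limma. MRPL13 had between 659 and 822 normalized counts (median 765) in the 8 TTP libraries and between 810.3 and 976 normalized counts (median 920.3) in the 8 EV libraries, with 1 TTP_E11 library inside the EV range, and a log2 change of -0.24 (SE 0.042, adjusted p = 6.23e-06) in limma. With reads summed per clone its adjusted p was 0.0847 in edgeR. MRPL34 and MRPL33 overlap genes on the opposite strand (ABHD8 and RBKS), with the limit given for MRPS27. MRPL33 also overlaps BABAM2 on its own strand, as MRPL28 does TMEM8A, and counting by strand would not separate these.

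**Figure D3:**
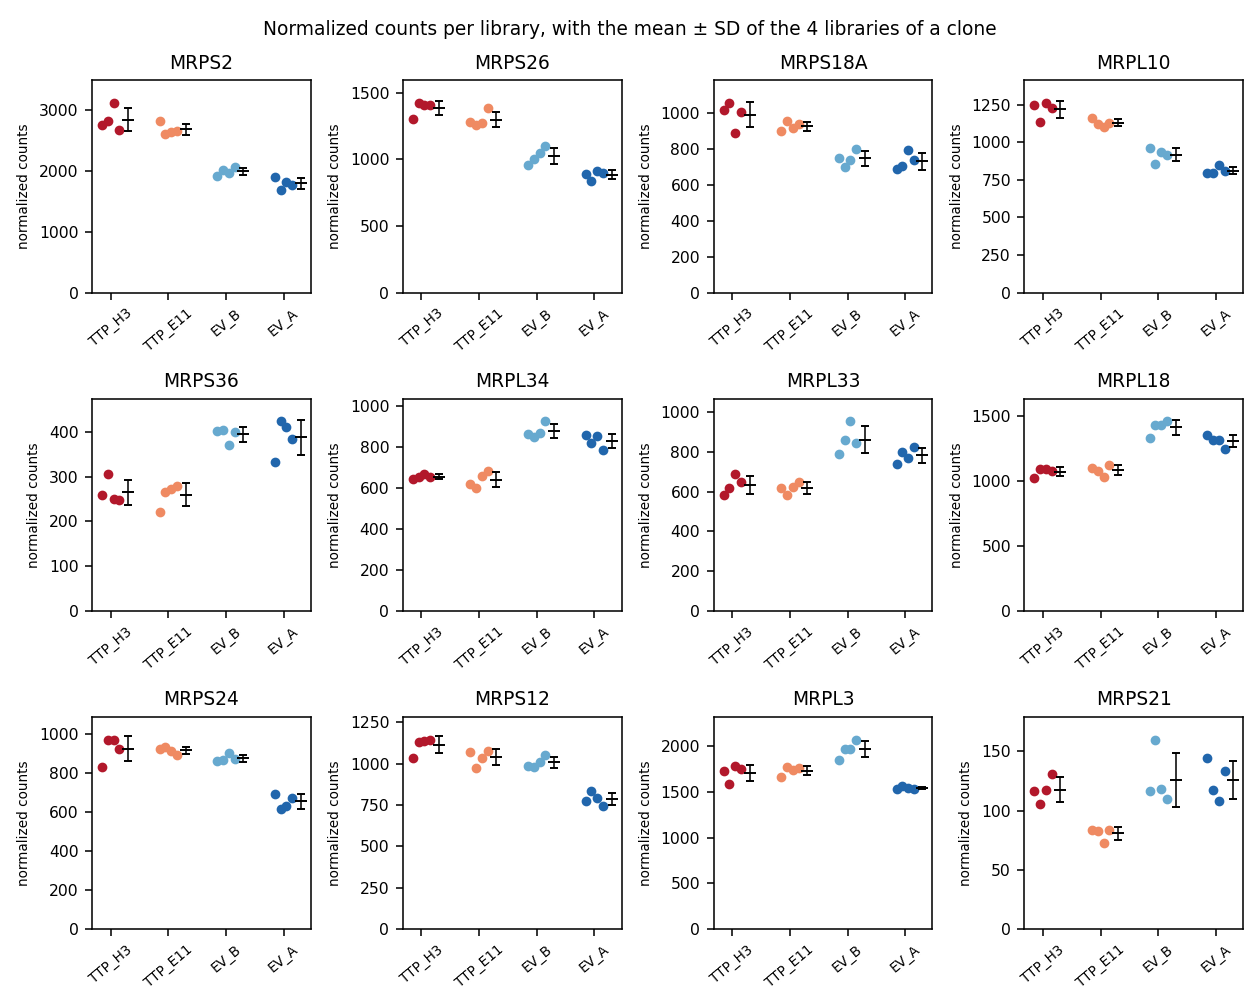
Normalized counts of 12 genes in each of the 16 libraries (points), with the mean and SD of the 4 libraries of a clone (black bars), TTP clones left of EV clones. The upper row holds genes higher in both TTP clones, the middle row genes lower in both, and the lower row MRPS24, MRPS12 and MRPL3, where EV_A is the lowest clone, and MRPS21, where TTP_E11 is.

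Large subunit proteins specific to mitochondria had 9 of 21 higher and 4 lower, against 35.4% and 34.6% of all genes, with a median of 0.07. In each direction 1 gene was concordant, or 4.76%, against 19% and 19.5% of all genes. MRPS18A (ENSG00000096080, chromosome 6, 43671303 to 43687791) was the higher one, with 1015, 1053, 886 and 1001 in TTP_H3 and 896, 952, 911 and 936 in TTP_E11, against 747, 698, 738 and 797 in EV_B and 684, 705, 793 and 738 in EV_A normalized counts. The lowest TTP library, 886 in TTP_H3, was above the highest EV library, 797 in EV_B, and the log2 change was 0.37 (SE 0.039, adjusted p = 4.1e-10) in limma. MRPL42 was the lower one, with between 881 and 983 normalized counts (median 907) in the 8 TTP libraries and between 957 and 1094 normalized counts (median 1019) in the 8 EV libraries. Its arms overlapped in 1 TTP_E11 library, and the log2 change was -0.17 (SE 0.032, adjusted p = 1.98e-05) in limma, with an adjusted p of 0.139 in edgeR with reads summed per clone.

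MRPS18A has 2 paralogs, MRPS18B and MRPS18C, which sit in the small subunit. MRPS18B had between 1753 and 2215 normalized counts (median 1985) in the 8 TTP libraries and between 1689.9 and 1881 normalized counts (median 1788) in the 8 EV libraries, and a log2 change of 0.14 (SE 0.028, adjusted p = 3.12e-05) in limma, which did not pass with reads summed per clone (adjusted p = 0.199 in edgeR). MRPS18C had between 549 and 641 normalized counts (median 599) in the 8 TTP libraries and between 498 and 672 normalized counts (median 580.3) in the 8 EV libraries, and a log2 change of 0.05 (SE 0.044, adjusted p = 0.362). The arms of both overlapped, and MRPS18A alone of the 3 was concordant. MRPS18C did not pass, though it did with libraries scaled by total reads (log2 change 0.13) and with EV_A alone as control (log2 change 0.12).

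MRPS36 (ENSG00000134056, chromosome 5, 69217760 to 69230129) had the largest change of the 78 genes in absolute size. Its libraries held 258, 306, 249.4 and 247 in TTP_H3 and 222, 267, 272 and 278 in TTP_E11, against 403, 404, 371 and 401 in EV_B and 334, 424, 410.5 and 384 in EV_A normalized counts. The highest TTP library lay below the lowest EV library, and neither the TTP clones nor the EV clones differed from each other in the test. The log2 change was -0.58 (SE 0.059, adjusted p = 2.55e-10) in limma and -0.58 with reads summed per clone (adjusted p = 0.00934 in edgeR). GENCODE 29 names 5 pseudogenes of MRPS36, so counts of this gene may be split by how reads with several matches were handled, on which the sources used here say nothing.

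A difference between the EV clones ran through the family. Relative to EV_A, EV_B was higher in 42 of the 78 genes, or 53.8%, and lower in 0 (limma), where 36.8% of all genes passed, 20.2% higher and 16.6% lower. At an unadjusted p under 0.05 the counts were 48 higher and 1 lower, the 1 being MRPS6 (adjusted p = 0.0509, named after its value was seen). DESeq2 also called 0 lower and edgeR 1. The median log2 difference was 0.15, against 0.07 between TTP and EV, and in the order used above 8 of 16, 5 of 10, 20 of 30 and 9 of 21 genes of the roles were higher.

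MRPS24 (ENSG00000062582, chromosome 7, 43866558 to 43869893), the mitochondrial counterpart of bacterial S3, differed most between the EV clones. Its libraries held 833, 968, 972 and 923 in TTP_H3 and 925, 935, 911 and 893 in TTP_E11, against 864, 866, 903 and 871 in EV_B and 695, 615, 632 and 675 in EV_A normalized counts. EV_A stood alone below the other 3 clones, and EV_B overlapped both TTP clones. The log2 difference of EV_B over EV_A was 0.42 (SE 0.052, adjusted p = 1.22e-07) in limma, larger than that of TTP over EV at 0.28 (SE 0.036, adjusted p = 3.5e-08).

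MRPS12, a protein of the decoding centre, had 1037, 1133, 1137 and 1146 in TTP_H3 and 1073, 974, 1037 and 1075 in TTP_E11, against 985, 983, 1012 and 1053 in EV_B and 773, 834, 793 and 746 in EV_A normalized counts. Here too EV_A lay below every other library, and the log2 difference of EV_B over EV_A was 0.36 (SE 0.048, adjusted p = 6.01e-07) in limma. MRPL3, a protein by the peptidyl transferase centre, had 1722, 1584, 1779.6 and 1749 in TTP_H3 and 1661, 1767, 1735 and 1762 in TTP_E11, against 1849, 1972, 1969 and 2069.7 in EV_B and 1528, 1560.4, 1538 and 1535 in EV_A normalized counts. Its TTP clones lay between the EV clones, with all 4 EV_B libraries above and all 4 EV_A libraries below them. The log2 difference was 0.35 (SE 0.041, adjusted p = 6.17e-08) for EV_B over EV_A and -0.02 (SE 0.029, adjusted p = 0.62) for TTP over EV in limma.

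The 4 pairs of clones show the same in counts. TTP_H3 had 27 genes higher and 18 lower than EV_B (59.5% of all genes passed, 29.8% higher and 29.7% lower), and 46 higher and 10 lower than EV_A (64% passed, 32% higher and 31.9% lower). TTP_E11 had 12 genes higher and 26 lower than EV_B (59.4% passed, 29.9% higher and 29.5% lower), and 36 higher and 13 lower than EV_A (63.1% passed, 31.8% higher and 31.3% lower). Pairs with the same EV clone share its libraries.

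The position of the TTP clones thus changed with the EV clone they were set against. Both TTP clones passed as higher than EV_A in 35 of the 78 genes, or 44.9%, against 27.4% of all genes, and as higher than EV_B in 11, or 14.1%, against 24.7%. Both passed as lower than EV_A in 8 genes, or 10.3%, against 26.9%, and as lower than EV_B in 17, or 21.8%, against 25.1%. The 11 genes higher than both EV clones and the 7 lower than both are the concordant ones named above.

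Ranked by clone mean, EV_A was lowest in 49 of the 78 genes, or 62.8% (29.5% of all genes), and TTP_H3 was highest in 41, or 52.6% (24.2%). EV_B was highest in 30, or 38.5% (24.3%). Summed over the 78 genes the normalized counts were 85901 ± 2008 in TTP_H3 and 81856 ± 1801 in TTP_E11, against 83734 ± 2038 in EV_B and 75417 ± 886 in EV_A (mean ± SD, n = 4 each). As a share of the reads on listed genes the family took 0.473 ± 0.0117% in TTP_H3 and 0.451 ± 0.00679% in TTP_E11, against 0.431 ± 0.0112% in EV_B and 0.397 ± 0.00316% in EV_A. The order of TTP_E11 and EV_B thus turned with the scaling, while TTP_H3 was highest and EV_A lowest on both scales. The ratio of small to large subunit sums was 0.559 ± 0.00389 in TTP_H3 and 0.548 ± 0.00392 in TTP_E11, against 0.539 ± 0.00545 in EV_B and 0.55 ± 0.00237 in EV_A.

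**Figure D4:**
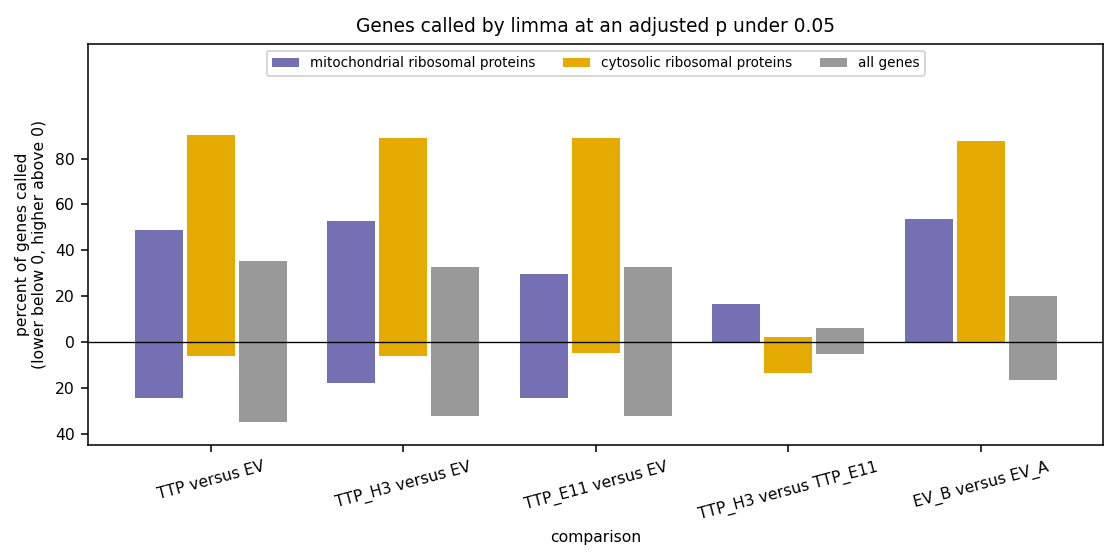
Percent of genes that passed limma at an adjusted p of 0.05, higher drawn above 0 and lower below 0, in 5 comparisons, for the 78 mitochondrial and 82 cytosolic ribosomal protein genes and for all 14857 genes. Between EV_B and EV_A 53.8% of the mitochondrial family was higher and no bar is drawn below 0, while cytosolic ribosomal protein genes were mostly higher in TTP and in EV_B.

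Against both EV clones together, TTP_H3 had 41 genes higher and 14 lower (median 0.11), where 64.7% of all genes passed, 32.7% higher and 32% lower, and TTP_E11 had 23 higher and 19 lower (median 0.03), where 64.6% passed, 32.6% higher and 32% lower. These comparisons share the EV libraries. With libraries scaled by total reads TTP_H3 had 48 genes higher and 9 lower, where 65.5% of all genes passed, 40.1% higher and 25.4% lower, and TTP_E11 had 38 higher and 12 lower, where 65.4% passed, 40.5% higher and 24.9% lower. The direct comparison of TTP_H3 with TTP_E11 gave 13 genes higher, or 16.7%, and 0 lower in limma, where 11.7% of all genes passed, 6.35% higher and 5.32% lower. At an unadjusted p under 0.05 there were 24 higher and 0 lower, and edgeR and DESeq2 each gave 12 higher and 0 lower. Without replicate 1 of TTP_E11 the count was 8 higher, and without replicate 3 of TTP_H3 there was 1 lower.

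MRPS21 (ENSG00000266472, chromosome 1, 150293720 to 150308979) differed most between the TTP clones. Its libraries held 116, 105, 118 and 131 in TTP_H3 and 84, 82.4, 72.4 and 83.9 in TTP_E11, against 117, 159.9, 118 and 110.02 in EV_B and 145, 117, 108 and 133 in EV_A normalized counts. All 4 TTP_E11 libraries lay below all 12 others, and TTP_H3 overlapped both EV clones. The log2 difference of TTP_H3 over TTP_E11 was 0.54 (SE 0.12, adjusted p = 0.00379) in limma. GENCODE 29 names 8 pseudogenes of this gene, the most in the family.

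MRPL46 and MRPS11, the next in size, are neighbours on chromosome 15 that are read in opposite directions, with 33 bases between them. MRPL46 (ENSG00000259494, chromosome 15, 88459476 to 88467419), of the large subunit, had 304, 329.9, 360.1 and 284 in TTP_H3 and 266, 250.1, 261 and 288 in TTP_E11, against 241, 238, 245 and 256 in EV_B and 207, 203, 226 and 224 in EV_A normalized counts. TTP_H3 was highest and overlapped TTP_E11 in 1 library, and the log2 difference of TTP_H3 over TTP_E11 was 0.26 (SE 0.079, adjusted p = 0.0287) in limma. This call was lost when any of 5 single libraries was left out (adjusted p 0.0581 to 0.0981). MRPS11 (ENSG00000181991, chromosome 15, 88467453 to 88480773), the counterpart of bacterial S11, had 548, 619.7, 604 and 627 in TTP_H3 and 474, 521, 514 and 529.97 in TTP_E11, against 487, 502, 498 and 515 in EV_B and 458, 450.2, 486 and 489 in EV_A normalized counts. All TTP_H3 libraries lay above all others, and the log2 difference was 0.23 (SE 0.058, adjusted p = 0.00665) in limma. Both genes overlap a further transcript, AC013489.1. It lies on the opposite strand of MRPS11, with the limit on strand given above, and on the same strand as MRPL46, where counting by strand would not separate them.

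The family covered a wide range of levels. Per kb of annotated exon, MRPL14 stood highest at 3326 normalized counts per kb (mean of 16 libraries), followed by MRPS10 at 1912 and MRPL41 at 1461. The lowest were MRPL46 at 40.7, MRPL42 at 59.2 and MRPS21 at 68.6, with a median of 369 over the 78 genes and a span of 81.8-fold from lowest to highest. With the length of the principal transcript in place of all exons the span was 53.4-fold, MRPL14 and MRPS10 kept the top ranks, and MRPL46 ranked 60 of 78, so its place rests on the annotated length. The place of MRPL42 rests on length too, with 16393 bases of annotated exon and 15582 in its principal transcript. Its libraries held 881 to 983 normalized counts in TTP and 957 to 1094 in EV. MRPL14, which binds the assembly factor MALSU1, had between 3142 and 3584 normalized counts (median 3246) in the 8 TTP libraries and between 2772 and 3417 normalized counts (median 3045) in the 8 EV libraries, with overlap. Its log2 change was 0.11 (SE 0.027, adjusted p = 0.000788) in limma and -0.00 with EV_B alone as control (-0.0027, adjusted p = 0.951). It did not pass with reads summed per clone (adjusted p = 0.43 in edgeR) or with 2 groups and clone ignored (adjusted p = 0.0512 in limma). MRPL41 had between 1749 and 1911 normalized counts (median 1833) in the 8 TTP libraries and between 1708 and 1983 normalized counts (median 1864) in the 8 EV libraries, and its log2 change of -0.02 (SE 0.031, adjusted p = 0.622) did not pass.

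Genes with an AU-rich core in the 3′ UTR fell in larger number than they rose, and those without it rose in larger number. Of the 10 with the core, 1 rose (MRPL22, 0.20), 5 fell (MRPL33, MRPS10, MRPL19, MRPL42 and MRPL17) and 4 did not pass, with a median log2 change of -0.08. Of the 68 without it 37 rose and 14 fell, with a median of 0.09. Of the 4082 protein-coding genes with the core in the whole data set 26.4% rose and 50.4% fell (median -0.11), against 44.0% higher and 30.3% lower among the 8518 without it (median 0.07). The family's own difference has the same direction, rests on 10 genes and was not tested.

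The core goes with length, since the median 3′ UTR was 2545 bases in the 10 genes and 326 bases in the 68. It was 398 bases over all 78 genes and 1085 bases over protein-coding genes of the table, and among other genes whose 3′ UTR lay between 128 and 2532 bases 24.1% held the core. The median of those other genes was 823 bases, so they were not matched to the family in length. MRPL19, MRPL50, MRPL35, MRPS33 and MRPL42, which hold the core, have a longer 3′ UTR than that range allows. The part of length in the difference was not tested. The shorter pentamer ATTTA was found in 40 of the 78 genes, or 51.3%, against 69.0% of protein-coding genes. Of these 40 genes 15 rose and 11 fell, and of the 38 without it 23 rose and 8 fell. MRPS36, MRPL34 and MRPL18, which with MRPL33 fell most among the concordant genes, hold no TATTTAT core in the annotated 3′ UTR. MRPS36 holds 6 ATTTA pentamers there, and MRPL34 and MRPL18 hold 0. Of the 19 genes that fell 5 held the core, or 26.3%, and of the 38 that rose 1 did, or 2.63%. This difference was not tested.

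**Figure D5:**
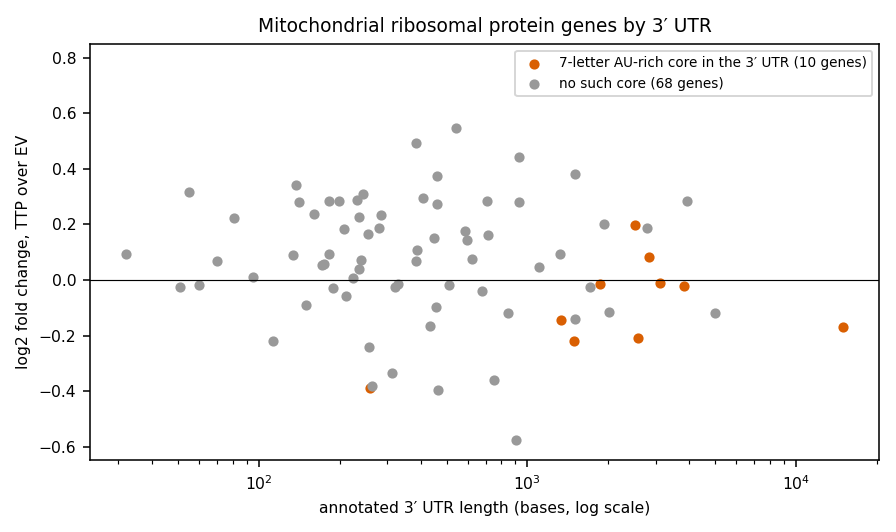
Log2 fold change of the 78 genes, TTP over EV, against the length of the annotated 3′ UTR in bases (log scale), with the 10 genes that hold the AU-rich core in orange and the 68 without it in grey. The orange points lie mostly at long 3′ UTRs and at or below 0, with MRPL33 at -0.39 as the one with a short 3′ UTR.

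Other promoter motifs were searched on both strands in the same windows. The ETS motif, which GABP and related factors bind (ACCGGAAG or CCGGAAGT, which overlap), stood in 17 of the 69 promoters, or 24.6%, against 10.6% of genes in the table. The palindromic motif of NRF1, searched with 1 free base, stood in 8, or 11.6%, against 11.7%. The cyclic AMP response element (TGACGTCA) stood in 0, against 3.28%. Any of the 4 was present in 38, or 55.1%, against 26.9%. The end of an ETS match and the start of a YY1 match can share bases. Among the 8 promoters found of the 11 concordant genes that rose 3 held the YY1 motif, among the 5 found of the 7 that fell 2 did, and among 35 of the 42 genes higher in EV_B than in EV_A 11 did (31.4%), so the motif was present in each of these groups.

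The mRNAs of YY1, NRF1 and GABPA, whose proteins bind motifs searched here, were measured along with those of other regulators. Of 9 regulators of mitochondrial biogenesis 3 rose and 4 fell, against 35.4% and 34.6% of all genes. GABPA, the DNA-binding part of GABP, had 438 ± 10.4 in TTP_H3 and 445 ± 40 in TTP_E11, against 586 ± 25.4 in EV_B and 688 ± 40.6 in EV_A normalized counts and a log2 change of -0.52 (SE 0.044, adjusted p = 1.99e-12). MYC, a regulator of growth genes, had 3746 ± 80.6 in TTP_H3 and 3923 ± 54.8 in TTP_E11, against 2493 ± 115 in EV_B and 2249 ± 92.7 in EV_A and a log2 change of 0.70 (SE 0.026, adjusted p = 2.91e-21), the largest of the list. YY1 and NRF1 had log2 changes of -0.11 and -0.18 (adjusted p = 0.000339 and 0.000154 in limma). The coactivator PPRC1 rose by 0.25 (adjusted p = 4.72e-09).

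Many genes that build the mitochondrial ribosome rose. Of 26 genes for assembly and for modification of mitochondrial rRNA 14 rose and 3 fell, with a median of 0.10, and 11 were concordant higher and 1 lower, or 42.3% and 3.85%, against the 19% and 19.5% of all genes given above. MRM3, an rRNA methyltransferase, had 927 ± 67.5 in TTP_H3 and 828 ± 46.9 in TTP_E11, against 544 ± 27.2 in EV_B and 533 ± 10.6 in EV_A normalized counts and a log2 change of 0.70 (SE 0.04, adjusted p = 1.38e-16). Both TTP clones stood above both EV clones by more than the SDs. TRUB2, a pseudouridine synthase, and MTG2, a GTPase, rose by 0.42 and 0.39. METTL15, a methyltransferase of the small subunit rRNA, was the concordant gene that fell, with 254 ± 10 in TTP_H3 and 270.3 ± 13.8 in TTP_E11, against 376 ± 13.6 in EV_B and 391 ± 39.3 in EV_A and a log2 change of -0.54 (SE 0.052, adjusted p = 4.28e-11).

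Of 15 mitochondrial translation factors 2 rose and 6 fell (median -0.02), against 35.4% and 34.6% of all genes. TUFM, the elongation factor that brings tRNA to the ribosome, had 4713 ± 79.3 in TTP_H3 and 4749.9 ± 221 in TTP_E11, against 4167 ± 120 in EV_B and 3424 ± 67.2 in EV_A normalized counts and a log2 change of 0.32 (SE 0.024, adjusted p = 1.15e-13). GFM1, the translocation factor, had 822 ± 14.4 in TTP_H3 and 818 ± 28.4 in TTP_E11, against 1104 ± 45.8 in EV_B and 968 ± 36.7 in EV_A and a log2 change of -0.33 (SE 0.032, adjusted p = 7.39e-11), and its relative GFM2, which acts in recycling, fell by 0.42 on the log2 scale. The elongation factors thus moved in opposite directions. OXA1L, which inserts new chains into the inner membrane, rose by 0.22.

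Of 5 ribosome proteins with names outside the MRP series 3 rose and 1 fell, the last being DAP3 (named after its value was seen), with 1831 ± 154 in TTP_H3 and 1753 ± 62.2 in TTP_E11, against 2226 ± 54.6 in EV_B and 1905 ± 45.6 in EV_A normalized counts and a log2 change of -0.20 (SE 0.031, adjusted p = 9.19e-07). Of 5 genes of mitochondrial DNA transcription 3 rose and 2 did not pass, with POLRMT, the mitochondrial RNA polymerase, at 0.28. Of the 13 mRNAs that the mitochondrial ribosome translates 8 rose and 5 did not pass (median 0.15). Concordant higher were 2, or 15.4%, against 19% of all genes. They were MT-ND2 with 0.37 (SE 0.023, adjusted p = 1.78e-14) and MT-ND3 with 0.32 (SE 0.024, adjusted p = 2.36e-13) in limma, subunits of respiratory complex I. In TTP_H3 MT-CO1 was uneven, at 129117 and 138734 in replicates 1 and 2 against 190683 and 171338 in 3 and 4, while MT-ND3 ran from 16674 to 18389. The counts of these lists are to be read against the 35.4% of all genes that rose and the 34.6% that fell.

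Cytosolic ribosomal protein genes are the nearest comparison by function. They were taken by name, as RPL or RPS with a number, an optional A, X, Y or L and optional further digits, with RPSA and the RPLP genes added. This rule also admits like-named relatives with an L after the number, which were not set apart. Of the 82 genes taken by this rule 74 rose and 5 fell in TTP (median 0.23), 50 were concordant higher and 2 lower, and EV_B was higher than EV_A in 72 (median 0.20). Among all genes 35.4% rose and 34.6% fell, 19% were concordant higher and 19.5% lower, and 20.2% were higher in EV_B. The difference between EV_B and EV_A was thus present in both families. Between the TTP clones the cytosolic family had 2 genes higher and 11 lower in TTP_H3 (median -0.04), where the mitochondrial family had 13 and 0 (median 0.07). The mitochondrial family was less uniform than the cytosolic one, with 24.4% of its genes lower in TTP against 6.1%. The difference between the families was not tested.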

How the data were processed

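Per the labels, RNA was extracted from 16 cultures (4 clones, 4 biological replicates each) and the NEBNext Ultra II RNA kit was used for the libraries. The submitters' processing notes name the build GRCh38 and the tools STAR 2.5.2b, Trimmomatic 0.36, Subread 1.5.2 with featureCounts, and DESeq2. Settings, annotation and strand of counting are not given in the sources used here.

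A single table was deposited by the authors with a normalized signal per gene and library, called normalized counts here, which by its values is a read count divided by 1 size factor per library. Further columns, per the file headers, hold the authors' own p-value, its adjusted form and a log2 fold change for TTP against EV. Its smallest mean over the libraries is 9.68, so all 78 genes lie above whatever filter was used. Dividing by the smallest value above 0 gave whole numbers for 100% of values in every library (tolerance 0.001), taken as reads. This check is weaker for TTP_H3 replicates 1 and 3, where the divisor was 1.009 and 0.9975. Reads on listed genes are not the full depth.

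The library name in each description gave the group. The test was limma 3.58.1 (R 4.3.3, trend and robust options) on log2(value + 1), with no filter, all 16 libraries in 1 fit with 4 clone groups, Benjamini-Hochberg adjustment over 14857 genes and a threshold of 0.05. Fold changes are on this scale and understate changes of genes with few reads. Spread between cultures, not between clones, is what the p-values measure. Alternatives were edgeR 4.0.16, which on the recovered reads called 10456 genes between TTP and EV, DESeq2 1.42.0, TMM and total-read scaling, pseudocounts of 0.1 and 5, a mean of at least 50 normalized counts, limma without trend and robust options, the replicate number as a block, each EV clone alone, 2 groups with clone ignored, reads summed per clone and each library left out.

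The genes, lists and named genes were chosen with earlier results of these data known. Named genes were up to 8 concordant genes per direction with the largest smallest change over the 4 clone pairs, up to 3 per direction in each contrast within an arm, the MRPS18 paralogs, the stalk proteins, MRPS36, the 3 highest and 3 lowest in level, and up to 4 genes of other lists by adjusted p. Positions, overlaps, pseudogenes and 3′ UTRs are from GENCODE 29, which held 14820 of the listed genes. Of the 78 genes 38 overlap a gene on the opposite strand and 23 a gene on their own strand. Promoters are from RefSeq GRCh38.p14.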

Additional observations from a re-analysis of the deposited data

Results flagged for a closer look

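Of 104 groups of 4 libraries examined (26 named genes in 4 clones), 10 had 1 library far from the other 3, and chance marks about 1 group in 20. They were MRPS12 at 1037 in replicate 1 of TTP_H3, MRPS26 at 1306 in replicate 1 of TTP_H3 and at 1382 in replicate 4 of TTP_E11, and MRPS27 at 2226 in replicate 2 of TTP_H3. MRPL14 stood at 3429.6 in replicate 4 of TTP_E11, and MRPS21 at 72.4 in replicate 3 of TTP_E11 and at 159.9 in replicate 2 of EV_B. MRPS10 stood at 4328 in replicate 2 of EV_B, MRPS36 at 371 in replicate 3 of EV_B and MRPL13 at 916 in replicate 3 of EV_A (all in normalized counts). No single library accounts for more than 2 of the 10.

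TTP_H3 and TTP_E11 differed in 5 of the named genes by limma (TTP_H3 minus TTP_E11, log2), and a difference between 2 single clones cannot be told apart from one in the effect of TTP. The differences were 0.54 for MRPS21 (adjusted p = 0.00379), 0.26 for MRPL46 (adjusted p = 0.0287), 0.23 for MRPS11 (adjusted p = 0.00665), 0.22 for MRPL12 (adjusted p = 0.002) and 0.16 for MRPS18B (adjusted p = 0.00597). In all 5 TTP_H3 was higher, as in every gene of the family that passed in this comparison. MRPS21, MRPL46 and MRPS11 were named for their size in this same comparison, so their passing was fixed by the choice. Of all genes 11.7% passed in it, 6.35% higher and 5.32% lower.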

How the results depend on the processing

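Of the recomputed values of single named genes, 798 were counted as unchanged, 15 missed the threshold, 2 newly passed it and 1 changed sign without passing. A change of sign in a gene that had not passed in the main fit was counted as unchanged. This was so for MRPL41, at 0.06 for TTP against EV with libraries scaled by total reads. Scaling by total reads, which moved the median of all genes by 0.08 between arms, gave medians of 0.15 for TTP, 0.19 for TTP_H3 and 0.11 for TTP_E11 against EV and 0.12 for EV_B against EV_A. It gave 9 genes lower in TTP_H3 (25.4% of all genes), 38 higher and 12 lower in TTP_E11 (40.5% and 24.9% of all genes), 24 concordant higher (25.5% of all genes), and 1 lower in EV_B than in EV_A. That last count was also 1 with a mean of at least 50 normalized counts, TMM scaling, edgeR and the replicate block. The cause was not tested. Without replicate 4 of EV_B and replicate 3 of TTP_H3 together, chosen after seeing the data, it was 1, as was the count lower in TTP_H3 than in TTP_E11. Leaving out 1 library in turn gave 0 to 1 lower in EV_B, 8 to 14 higher and 0 to 1 lower in TTP_H3 than in TTP_E11, 33 to 39 higher and 19 to 20 lower in TTP than in EV, and 10 to 15 and 5 to 8 concordant. Reads summed per clone gave 8 higher and 4 lower in TTP, with fewer units of replication by construction. EV_A alone as control gave a median of 0.14, and EV_B alone 22 higher and a median of -0.0012. With EV_B alone MRPL14 stood at -0.0027, a change of sign that did not pass.

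Same-numbered libraries of different clones were not paired, as the correlations of their deviations ran from -0.0587 to 0.0614, 0 of 24 pairs were over 0.1, and 2 of 16 libraries correlated best with their own number. With the replicate block the counts in TTP against EV were 38 higher and 19 lower, as without it. With 61847 to 95339 reads on the 78 genes per library, MRPS21, at 72.4 to 159.9 normalized counts, is the gene on which depth bears most among those named.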
